A study of Rattus norvegicus with 24 samples.

Results

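The genes described here are those that lipopolysaccharide (LPS) raised moderately in microglia of normoxic (Nx) rat neonates, and the question is how far they were also raised after neonatal intermittent hypoxia (IH). They were chosen by size of response. For each sex apart, L was the log2 ratio of the mean normalised read count (CPM, in which the gene counts of every library are scaled to the same total) of the Nx LPS samples to that of the Nx vehicle samples, with 1 added to each mean. A gene was kept where L was at least 1 and under 2 in both males and females and its mean was at least 10 CPM in both Nx LPS groups. These limits were met by 116 genes. Of these, 1 is among the 21 genes that the study lists by name and 1 is among 14 further identifiers left out by the same rule, so 114 genes remained of 32754 in the count files. All 114 passed the filter on low counts that left 12860 genes for testing, and they made up 0.886% of the genes tested.

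RNA was sequenced from microglia of Sprague Dawley rat pups of both sexes at postnatal day (P) 9, with 3 biological replicates in each of 8 groups. Pups were kept with their dams from P1 for 8 days, 8 h a day, either in room air (Nx) or in IH, in which 2 min cycles alternated 10.5% and 21% oxygen. About 16 h after the last exposure they received an intraperitoneal injection of LPS at 0.1 mg/kg or of vehicle, and brains were taken 3 h later. Cells were isolated magnetically with an antibody to CD11b/c from brain without the cerebellum and olfactory bulbs. The groups are called Nx, Nx LPS, IH and IH LPS, in males and in females. CD11b/c is carried by other myeloid cells as well as microglia, and the files identify genes by Ensembl identifier without a name, so the isolate could not be checked against marker genes here. In such bulk samples, fewer cells of a type and less RNA per cell cannot be told apart.

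LPS is a component of the outer membrane of Gram-negative bacteria that microglia sense through Toll-like receptor 4. The receptor signals through one arm that activates NF-κB and AP-1 and another that leads to type I interferon, and within hours a large programme of cytokines, chemokines, receptors and feedback inhibitors is transcribed. Best known are the genes that rise most, but a broader set rises to a smaller degree. Since identifiers could not be paired with names, the roles of the 114 genes are not described here, and 4 of them are given by identifier.

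Total counts assigned to genes lay between 6624453 and 8548714 per sample, with similar depth throughout. The mean of the 114 genes in the 6 IH LPS samples ran from 8.61 to 655 CPM with a median of 65.7 CPM. In IH vehicle samples 32 of the genes were under 10 CPM, 58 were from 10 to under 100 CPM and 24 were at 100 CPM or more. Only 1 of the genes had a count under 10 in any IH vehicle sample, and none had a count of 0 in any sample.

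In Nx samples, where the genes were chosen, the median of L was 1.33 in males (range 1.00 to 1.99) and 1.34 in females (1.00 to 1.98). These values follow from the selection and were not tested. Over all tested genes the median of L was -0.06 in males and -0.14 in females, and 1.29% of tested genes met the limits on L in both sexes. The genes nearest the lower limit had a smaller L of 1.001 and 1.003 inside it and 0.997 and 0.995 outside it. Those nearest the upper limit had a larger L of 1.991 and 1.984 inside it and 2.001 and 2.004 outside it. The limits therefore cut through a continuous range of responses.

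A pair of male LPS libraries stood apart from the others of their groups. This was measured as the log2 ratio of each gene's CPM in a library, with 1 added, to the mean of the vehicle samples of the same sex and oxygen exposure, and the median was taken over the 114 genes. In Male Nx LPS it was 1.54, 0.63 and 1.51 for replicates 1, 2 and 3. In Male IH LPS it was 1.31, 1.05 and 0.21. The low libraries were thus Male Nx LPS replicate 2 and Male IH LPS replicate 3. In Female Nx LPS the medians were 1.27, 1.35 and 1.39, and in Female IH LPS they were 1.21, 0.81 and 1.31. Vehicle libraries lay between -0.12 and 0.07. The female libraries were all above both low male libraries, and the lowest of them was Female IH LPS replicate 2.

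**Figure D1:**
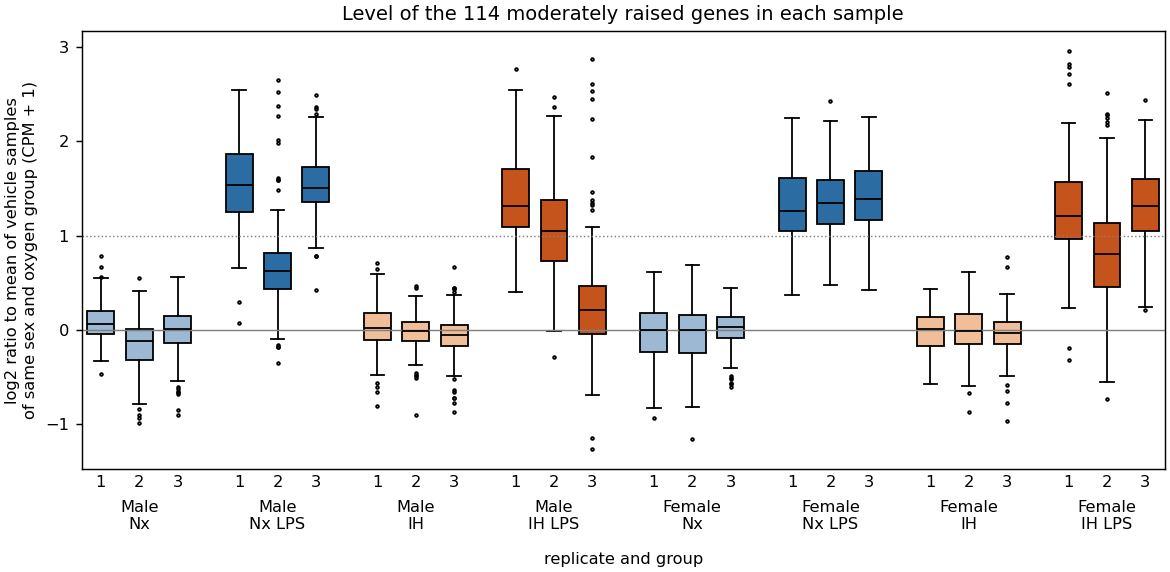
The horizontal axis gives the 24 samples by group and replicate, and the vertical axis the log2 ratio of CPM + 1 to the mean of the vehicle samples of the same sex and oxygen exposure, with boxes for the quartiles and median over the 114 genes. Male Nx LPS replicate 2 (median 0.63) and Male IH LPS replicate 3 (median 0.21) lie below the other LPS samples.

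The same libraries were low for Cxcl10, a chemokine induced by interferon that is not one of the 114 genes. Its level was 2623, 124 and 2972 CPM in Male Nx LPS and 1185, 993 and 21.2 CPM in Male IH LPS, against 4.23 to 14.6 CPM in vehicle samples. In Female IH LPS it was 691, 457 and 1593 CPM. Among the Male IH LPS samples, replicate 3 was therefore low by a far wider margin for Cxcl10 than for the median of the 114 genes. The main values for IH males are given below with and without replicate 3.

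Summed over the 114 genes, expression was higher with LPS in both sexes, in Nx and in IH. In Nx the rise follows from the selection, and only the IH sums are apart from it. In males the sum was 6463 ± 341 CPM in Nx, 15949 ± 4923 CPM in Nx LPS, 6441 ± 145 CPM in IH and 12336 ± 3902 CPM after LPS in IH (SD, n = 3 for every group). In females it was 6582 ± 196 CPM in Nx, 17060 ± 1164 CPM in Nx LPS, 6578 ± 222 CPM in IH and 15112 ± 2498 CPM after LPS in IH (SD, n = 3 for every group). The 4 vehicle groups differed in this sum by less than the spread within them. Per sample, the sum in Male IH LPS was 15920, 12908 and 8180 CPM, and in Female IH LPS it was 15821, 12336 and 17179 CPM. All 6 were above every vehicle group's mean, and the lowest was again Male IH LPS replicate 3. Without it the Male IH LPS sum was 14414 ± 2130 CPM (SD, n = 2).

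The spread between replicates was widest in male LPS samples. The median coefficient of variation over the 114 genes was 39.8% in Male Nx LPS and 43.4% in Male IH LPS, against 16.9% in Male Nx and 13.1% in Male IH. In Male IH LPS without replicate 3 it was 22.3%, over 2 samples. In females it was 18.5% in Nx LPS and 27.4% in IH LPS, against 20.4% in Nx and 14.7% in IH. The genes varied no more in LPS than in vehicle samples among Nx females, where none of the libraries stood apart.

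By the measure that chose the genes, computed this time from the IH and IH LPS samples, every one of the 114 was higher with LPS in both sexes. The median of L in IH was 0.94 in males (quartiles 0.76 and 1.23, range 0.35 to 2.36) and 1.14 in females (quartiles 0.96 and 1.43, range 0.20 to 2.27), while over all tested genes it was -0.07 and -0.06. L was at least 1 in 52 of the 114 genes in males, where 2.09% of all tested genes reached it, and in 83 in females, where 2.73% did. Without Male IH LPS replicate 3 the count in males was 82 and the median of L was 1.18, and without Male IH LPS replicate 1 they were 30 and 0.70. In both sexes together 44 genes reached it, against 1.63% of tested genes, and 39 of these stayed under 2 in both. Another 39 genes reached an L of 1 in females only, 8 in males only and 23 in neither sex. At an L of at least 0.5 the counts were 110 in males and 109 in females, so most genes under the limit in IH were not far under it. Leaving out Male IH LPS replicate 1 lowered the number with an L of at least 1 in both sexes from 44 to 24, and leaving out Male IH LPS replicate 3 raised it to 63.

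**Figure D2:**
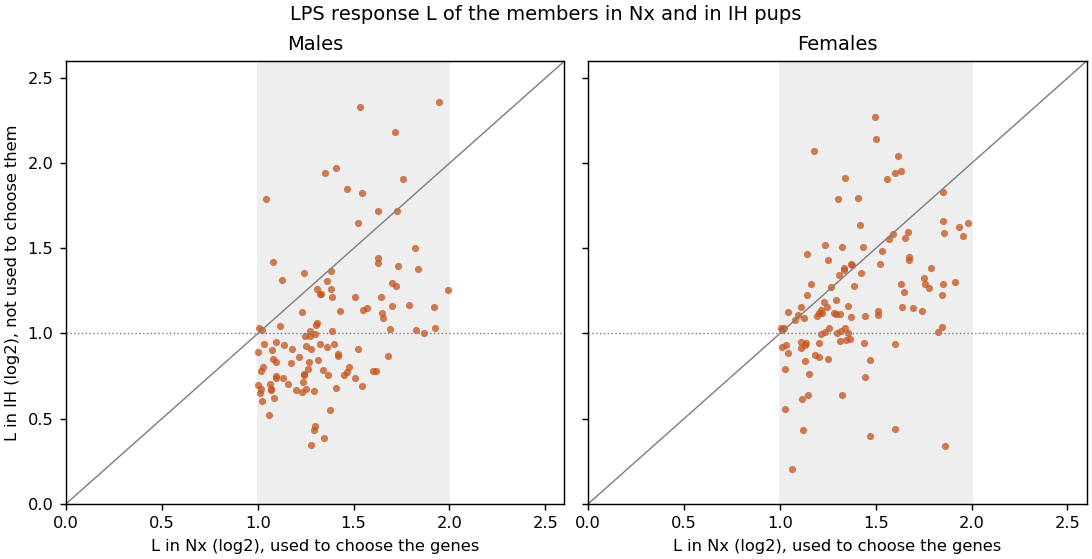
Each point is 1 of the 114 genes, with L in Nx on the horizontal axis and L in IH on the vertical axis (both log2 ratios of mean CPM + 1), for males and females. All points lie above 0 on the vertical axis, and 99 points in males and 83 in females lie below the line of equal response.

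L was lower in IH than in Nx for 99 of the 114 genes in males and for 83 in females, with a median difference of -0.36 in males and -0.19 in females. Since the genes were chosen for their L in Nx, this difference was not tested. With both low male libraries left out, the median of L in males was 1.54 in Nx and 1.18 in IH, the median difference was -0.38 and 93 genes were lower in IH. With libraries scaled by the trimmed mean of M values (TMM), which moved the median of all tested genes by 0.05 to 0.09, the median differences were -0.37 in males and -0.22 in females. Across the 114 genes, Pearson's r between L in Nx and in IH was 0.47 in males and 0.40 in females. This is a description over genes, which share libraries and are not independent replicates, and over a range of L that the selection narrowed. Applying the same limits to the IH samples instead picked 75 genes, of which 38 were among the 114 (33.3% of the 114 and 50.7% of the 75). Those 75 had a median L of 1.28 in males and 1.51 in females in IH, where they were chosen, and of 1.64 and 1.67 in Nx. The limits held their L in IH under 2 but did not bound it in Nx. There, 24 of the 75 had an L of 2 or more in either sex and 14 had one under 1. This is a description and was not tested. L was lower in Nx than in IH for 19 of the 75 in males and 24 in females.

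The genes with the larger responses kept a larger response in IH as well. The 69 genes with an L of at least 2 in both sexes in Nx had a median L of 2.71 in males and 2.71 in females in Nx, and of 2.19 and 2.46 in IH. Of these, 68 in males and 69 in females had an L of at least 1 in IH. The median difference between IH and Nx was -0.50 in males and -0.35 in females, larger in size on the log2 scale than for the moderately raised genes. This was not tested, since both sets were chosen on Nx samples.

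The effect of LPS in IH was then tested gene by gene in the 12 IH samples, none of which had been used for the selection. Averaged over the sexes, 95 of the 114 genes (83.3%) were higher with LPS at a false discovery rate (FDR) below 0.05 by edgeR's quasi-likelihood F test with Benjamini-Hochberg adjustment over all tested genes, where 4.26% of all 12860 tested genes were. Among the 8191 tested genes that had a mean of at least 10 CPM in both Nx LPS groups, 5.37% were called higher. The fitted log2 fold change was above 0 for all 114 genes, with a median of 1.13 (range 0.57 to 2.79) and a median SE of 0.23, and 112 had an unadjusted p below 0.05, where 19.2% of all tested genes did in either direction. The median over all tested genes was -0.01. The p-values measure the spread between the 3 samples of each group.

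**Figure D3:**
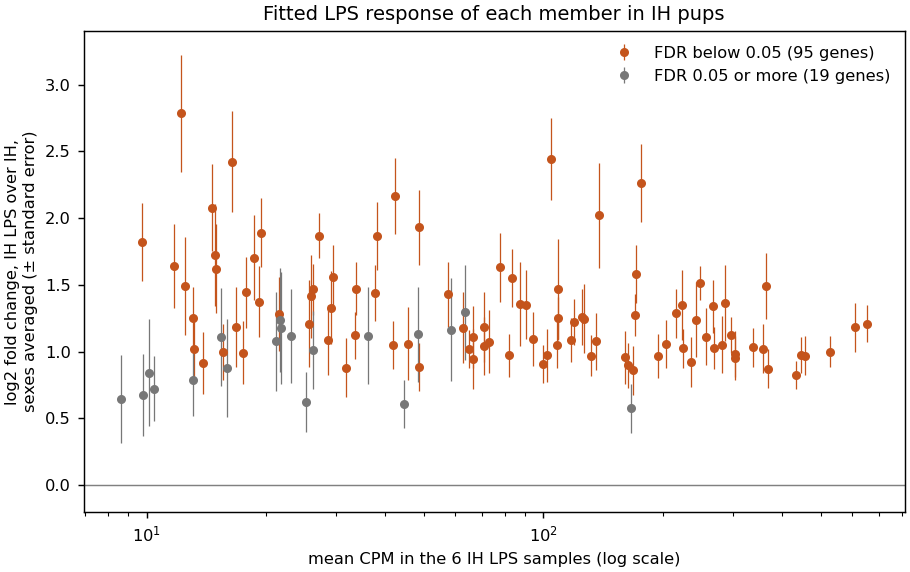
The fitted log2 fold change for LPS in IH averaged over the sexes (vertical axis) is plotted against the mean CPM in the 6 IH LPS samples (horizontal axis, log scale) for the 114 genes, with bars of 1 SE. The 95 genes called at an FDR below 0.05 and the 19 that were not are drawn apart, and those not called sit mostly at low CPM.

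The 19 genes not called were lower in level and had larger errors. Their median was 21.9 CPM in IH LPS, with a median log2 fold change of 1.01 and a median SE of 0.36, against 87.5 CPM, 1.21 and 0.22 for the 95 that were called. Ordered by level, the 38 lowest genes (8.61 to 29.1 CPM) had 25 called and a median log2 fold change of 1.22 with an SE of 0.30. The next 38 (29.4 to 120 CPM) had 33 called, at 1.15 with an SE of 0.23. The 38 highest (125 to 655 CPM) had 37 called, at 1.06 with an SE of 0.18. Among the 114 genes the fitted response was thus not smaller in the low ones, and the SE was larger toward low level. Since L adds 1 to each mean, a gene of low level needed a larger ratio in Nx to be chosen. The order of the fitted responses by level is therefore partly set by the selection. Of the 114 genes, the one with the largest fitted change, 2.79 with an SE of 0.44, rested on counts of 13, 6 and 2 in the Male IH samples and was among the lowest in level. The gene highest in level, at 655 CPM, had a log2 fold change of 1.21 with an SE of 0.14.

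The gene with the smallest p of the 114 was ENSRNOG00000004500. In IH males it was at 94.3, 89.0 and 90.9 CPM with vehicle and at 276, 216 and 149 CPM with LPS. In IH females it was at 83.1, 92.7 and 91.2 CPM with vehicle and at 271, 262 and 317 CPM with LPS. All 6 LPS samples were above all 6 vehicle samples, and the lowest LPS sample was Male IH LPS replicate 3. Its log2 fold change averaged over the sexes was 1.52 with an SE of 0.13, and the adjusted p was 4.28e-05 by edgeR's quasi-likelihood F test with Benjamini-Hochberg adjustment. In the Nx samples that chose it, the levels were 87.3, 88.5 and 91.1 CPM in males and 81.7, 102 and 104 CPM in females with vehicle, and 266, 206 and 292 CPM in males and 392, 282 and 369 CPM in females with LPS. Its vehicle levels overlapped between Nx and IH in both sexes.

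ENSRNOG00000050509 came next and was a gene of low level. With vehicle it was at 6.55, 7.83 and 7.72 CPM in IH males and at 8.08, 5.13 and 10.2 CPM in IH females. With LPS it was at 24.4, 19.5 and 20.003 CPM in IH males and at 31.8, 35.2 and 32.3 CPM in IH females. The groups did not overlap, and Male IH LPS replicate 3 did not stand apart from the other male LPS samples for this gene. The log2 fold change was 1.87 with an SE of 0.17, and the adjusted p was 7.21e-05 by edgeR's quasi-likelihood F test with Benjamini-Hochberg adjustment.

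The smallest fitted change of the 114 genes belonged to ENSRNOG00000002470. With vehicle it was at 116, 122 and 112 CPM in IH males and at 143, 114 and 95.9 CPM in IH females. With LPS it was at 219.6, 177 and 84.2 CPM in IH males and at 162, 161 and 197 CPM in IH females. Male IH LPS replicate 3 was below every vehicle sample, while the other 5 LPS samples were above all 6. The log2 fold change was 0.57 with an SE of 0.18, and the adjusted p of 0.0906 missed the threshold by edgeR's quasi-likelihood F test with Benjamini-Hochberg adjustment. Without Male IH LPS replicate 3 the log2 fold change was 0.71 with an adjusted p of 0.00275 by the same test. With any other single replicate left out the adjusted p stayed above the threshold. It ran from 0.0878 without Female IH LPS replicate 2 to 0.208 without Male IH LPS replicate 1. In Male Nx LPS the gene was at 384, 99.6 and 306 CPM, so that replicate 2 lay within the 106, 96.1 and 118 CPM of the Male Nx samples. Neither low library was thus above all the vehicle samples of its group for this gene.

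ENSRNOG00000010208 had the next smallest change. With vehicle it was at 32.7, 32.1 and 38.3 CPM in IH males and at 30.6, 26.3 and 25.3 CPM in IH females. With LPS it was at 62.3, 42.9 and 35.1 CPM in IH males and at 54.3, 27.8 and 45.4 CPM in IH females. Male IH LPS replicate 3 and Female IH LPS replicate 2 overlapped the vehicle samples of their sex. The log2 fold change was 0.61 with an SE of 0.18 and an adjusted p of 0.0637 by edgeR's quasi-likelihood F test with Benjamini-Hochberg adjustment. By the same test the adjusted p was 0.0255 without Male IH LPS replicate 3 and 0.00955 without Female IH LPS replicate 2. With any other single replicate left out it stayed above the threshold. It then ran from 0.0872 without Male IH LPS replicate 2 to 0.170 without Female IH LPS replicate 1.

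**Figure D4:**
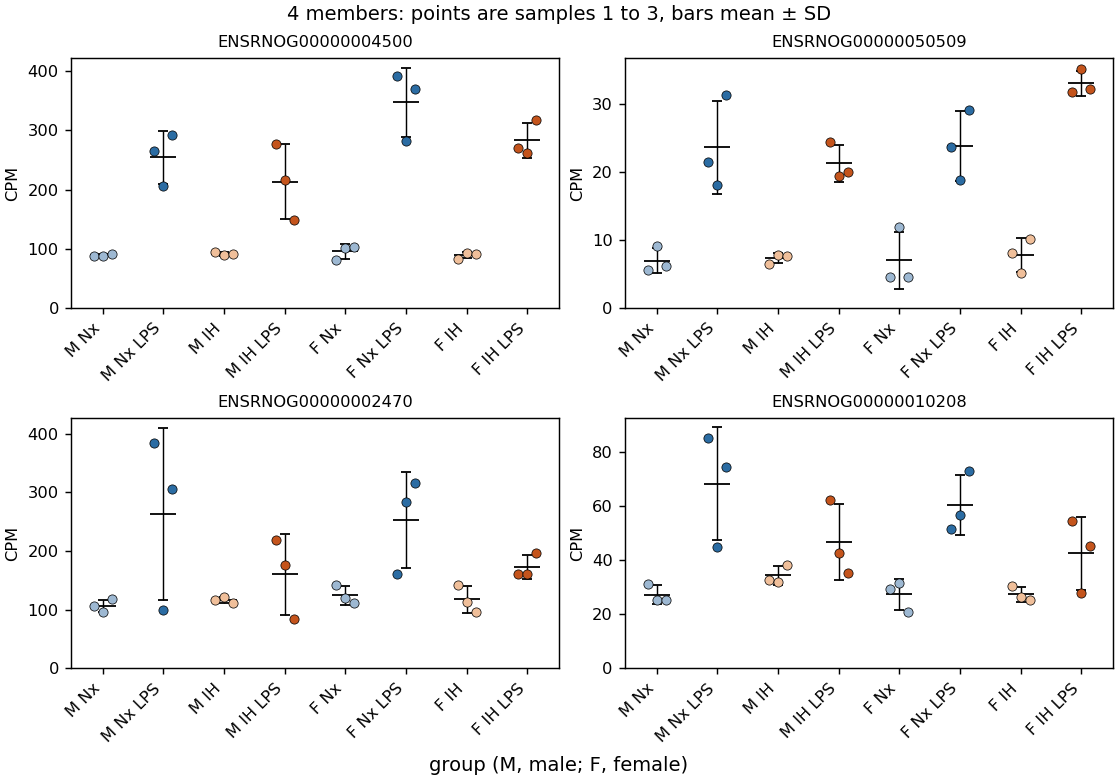
CPM in each of the 24 samples (vertical axis) is shown by group (horizontal axis) for the 2 genes with the smallest p and the 2 with the smallest fitted change in IH. In IH, LPS and vehicle samples do not overlap for ENSRNOG00000004500 and ENSRNOG00000050509, while Male IH LPS replicate 3 lies below the vehicle samples for ENSRNOG00000002470 (84.2 CPM) and among the male ones for ENSRNOG00000010208 (35.1 CPM).

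In IH males alone, 11 of the 114 genes (9.65%) were called higher with LPS by edgeR's quasi-likelihood F test with Benjamini-Hochberg adjustment, where 0.459% of all tested genes and 0.61% of those with a mean of at least 10 CPM were. The median log2 fold change was 1.04 (range 0.45 to 3.32), with an unadjusted p below 0.05 for 101 genes, where 8.72% of all tested genes had one in either direction. Without Male IH LPS replicate 3 the median log2 fold change was 1.25, and without Male IH LPS replicate 1 it was 0.81, with an unadjusted p below 0.05 for 79 genes and 6.05% of all tested genes. The count of calls rested on single libraries. It was 78 without Male IH LPS replicate 3, but it was 2 and 6 without Male IH LPS replicates 1 and 2 and 0, 0 and 1 without Male IH replicates 1, 2 and 3. Leaving out a female sample, which enters only through the shared estimate of spread, gave 6, 8 and 4 without Female IH replicates 1, 2 and 3 and 11, 14 and 14 without Female IH LPS replicates 1, 2 and 3. Over all tested genes the calls in either direction moved as well, from 62 to 500 without Male IH LPS replicate 3. They were 28 and 34 without Male IH LPS replicates 1 and 2. Without Male IH replicates 1, 2 and 3 they were 9, 7 and 16. Without Female IH replicates 1, 2 and 3 they were 41, 48 and 38, and without Female IH LPS replicates 1, 2 and 3 they were 61, 83 and 71. Whatever the count, the fitted change in the fit of all 12 samples was above 0 for each of the 114 genes.

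In IH females alone, 56 of the 114 genes (49.1%) were called higher by edgeR's quasi-likelihood F test with Benjamini-Hochberg adjustment, where 1.94% of all tested genes and 2.59% of those with a mean of at least 10 CPM were. The median log2 fold change was 1.24 (range 0.33 to 2.38), with an unadjusted p below 0.05 for 105 genes, where 14.5% of all tested genes had one in either direction. The count fell to 19, 11 and 18 without Female IH replicates 1, 2 and 3 and to 29 and 27 without Female IH LPS replicates 1 and 3, and it rose to 88 without Male IH LPS replicate 3. Over all tested genes the calls in either direction moved from 305 to 95, 61, 119, 145, 134 and 625 in the same order. Over all tested genes, 249 were called higher in females and 59 in males, and their split between the sexes was not counted. Of the 114 genes, 10 were called in both sexes, 46 in females only, 1 in males only and 57 in neither. The larger number in females is thus not particular to the 114 genes. Of the 57, 38 were called when the sexes were averaged.

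Whether LPS acted to a different degree in males and females was itself tested, since a call in one sex and not in the other does not show that they differ. None of the 114 genes passed for the interaction of sex and LPS in IH by edgeR's quasi-likelihood F test with Benjamini-Hochberg adjustment, where 0% of all tested genes did. At an unadjusted p below 0.05 there was 1 of the 114 genes and 1.6% of tested genes, and the count of adjusted calls among the 114 was also 0 with DESeq2 and with the likelihood ratio test of edgeR. Over all tested genes the median of the interaction, male minus female, was -0.001. Over the 114 genes it was -0.23 with a median SE of 0.46, and 29 of the 114 genes were above 0. The median was -0.03 without Male IH LPS replicate 3 and -0.13 without Female IH LPS replicate 3, but -0.50 without Male IH LPS replicate 1 and -0.39 without Female IH LPS replicate 2. Of the 114 genes, 11 had an unadjusted p below 0.05 in each of the last 2 of these fits, where 2.84% and 1.94% of all tested genes had one, and the first had 4, where 4.25% had one. By the measure L, the response in IH was smaller in males than in females for 50.6% of all tested genes, with a median difference of -0.004. It was smaller for 84 of the 114 genes, with a median difference of -0.20. Without Male IH LPS replicate 3 it was smaller for 54 of them, with a median difference of 0.03. Without Male IH LPS replicate 1 and Female IH LPS replicate 2 it was smaller for 98 and 94, with median differences of -0.49 and -0.33. The size of the difference thus rested on single libraries, and its direction on Male IH LPS replicate 3. In Nx, L was smaller in males for 65 of the 114 genes. Pearson's r between the male and female L over the 114 genes was 0.62 in IH and 0.48 in Nx.

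Levels of the genes in males and females were also compared directly. In IH LPS samples none of the 114 genes differed between the sexes by edgeR's quasi-likelihood F test with Benjamini-Hochberg adjustment, where 0.0467% of all tested genes did. At an unadjusted p below 0.05, 9 of the 114 were lower and 2 higher in males, where 10.5% of all tested genes passed in either direction. In IH vehicle samples none of the 114 differed by the same test, where 0.0467% of all tested genes did, and 2 of the 114 and 5.65% of tested genes had an unadjusted p below 0.05. DESeq2 and edgeR's likelihood ratio test called none of the 114 in either comparison. Over all tested genes the median log2 difference, male minus female, was 0.007 in IH LPS and 0.02 in IH vehicle samples. Over the 114 genes it was -0.26 in IH LPS and -0.01 in IH vehicle samples. In IH LPS it was -0.06 without Male IH LPS replicate 3 and -0.09 without Female IH LPS replicate 3, but -0.42 without Male IH LPS replicate 1 and -0.44 without Female IH LPS replicate 2. The number of the 114 genes with an unadjusted p below 0.05 was 34 and 20 in the last 2 of these fits, where 15.9% and 8.62% of all tested genes passed, and 7 without Female IH LPS replicate 1, where 6.61% passed.

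**Figure D5:**
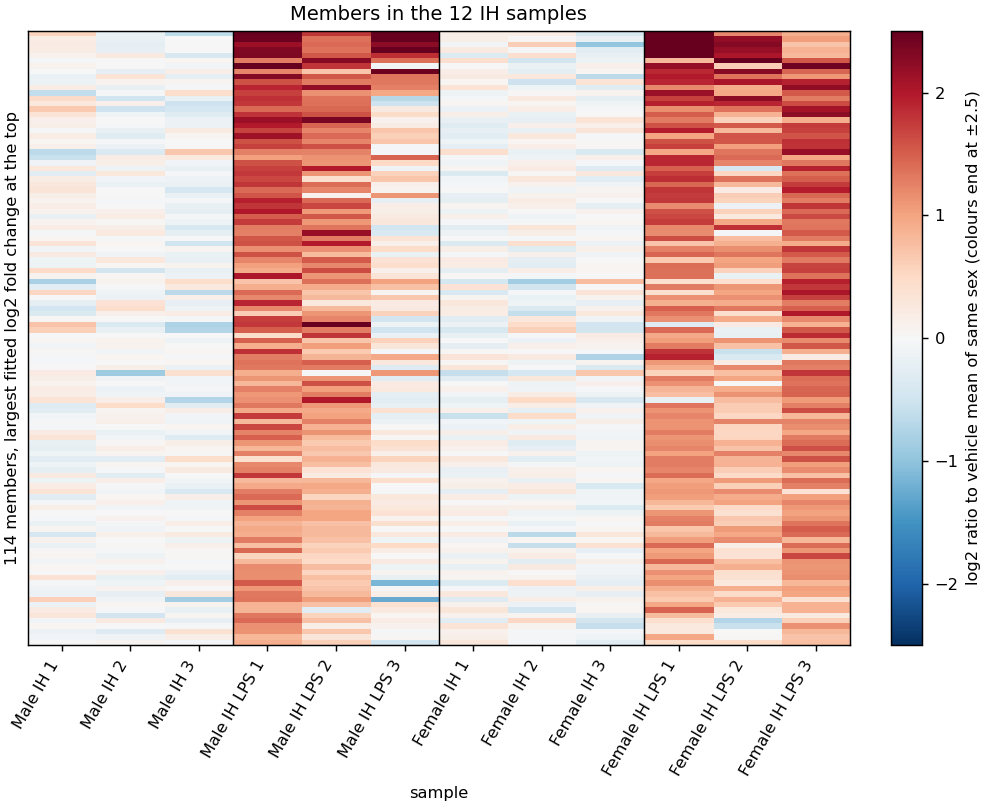
Each row is 1 of the 114 genes and each column 1 of the 12 IH samples, and colour gives the log2 ratio of CPM + 1 to the mean of the vehicle samples of the same sex. LPS columns are raised in most rows, with Male IH LPS replicate 3 (median 0.21) the palest of the 6.

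Counted by sample rather than by fit, the 3 LPS samples were all above the 3 vehicle samples for 57 of the 114 genes in IH males, where this held for 4.63% of all tested genes, and for 94 in IH females, where it held for 8.63%. It held in both sexes for 51 genes (2.54% of all tested genes) and in neither for 14. For 39 of the genes all 6 LPS samples were above all 6 vehicle samples, which 1.91% of all tested genes reached. Without Male IH LPS replicate 3, the other male LPS samples were both above the 3 vehicle samples for 108 of the 114 genes, where 16.6% of all tested genes were. Without replicate 1 or 2 the remaining male LPS samples were above for 58 and 60 of the genes, where 6.44% and 8.06% of all tested genes were. Taken library by library, the number of genes above all 3 vehicle samples of the same sex was 113, 109 and 61 in Male IH LPS and 108, 96 and 113 in Female IH LPS. In single IH LPS libraries this held for 22.4% to 33.3% of all tested genes.

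Within the low libraries the genes were not low alike. In Male IH LPS replicate 3, 32 of the 114 genes were below the vehicle mean, but 14 had a log2 ratio of at least 1. In Male Nx LPS replicate 2, 19 had a log2 ratio of at least 1. These sets shared 12 genes, which were 85.7% of the 14 and 63.2% of the 19. The shortfall of each low library against the mean of the other 2 males of its group had a median of -0.91 in Nx LPS and -0.90 in IH LPS over the 114 genes, where it was 0.05 and -0.10 over all tested genes. Pearson's r between these shortfalls over genes was 0.62 among the 114 and 0.60 over all tested genes, which is a description over genes that share libraries.

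The 12 genes that stayed raised in both low libraries were picked by those values, so their levels there, and their calls in fits that hold Male IH LPS replicate 3, follow from the choice. The other IH males share its vehicle mean and the Nx samples were used by the rule, which leaves the female IH LPS samples as values apart from the choice. In Female IH LPS replicate 1 the median of the 12 was 1.94 against 1.17 for the other 102 genes. In Female IH LPS replicate 2 it was 2.03 against 0.74, and in Female IH LPS replicate 3 it was 1.07 against 1.31. The 12 genes were thus above the others in 2 of the 3 female libraries and below them in the other, which is a description with no test.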

How the data were processed

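Libraries were prepared from stranded mRNA by the authors, who aligned reads with TopHat 2.1.0 (TopHat2 2.1 in the submitters' processing notes, with the genome build rn6), counted them per gene with HTSeq 0.6.1 and its reverse-strand setting, and deposited raw counts for each of the 24 samples, not normalized. Summary rows stayed out of library sizes and tests. Relative to gene counts and these rows together, reads outside genes were 14.7% to 21.2%, reads not placed uniquely 11.7% to 23.4% and ambiguous reads 0.265% to 0.435%. Multiply mapped reads were not counted, so near-identical genes are uncertain. The labels give the LPS dose as mg/mL and the design text as mg/kg, and name saline where the methods name HBSS.

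Tests used edgeR 4.0.16 and limma 3.58.1 in R 4.3.3. A gene was tested where 3 or more of the 24 samples exceeded a CPM of 1. The fit held the 12 IH samples, 4 group means and TMM scaling, with the quasi-likelihood F test with Benjamini-Hochberg adjustment and an FDR threshold of 0.05. The alternatives were DESeq2 1.42.0, the likelihood ratio test, other size factors, filters and sample sets, a replicate block and leaving out each replicate. Counts were also simulated for 12860 genes, 200 of them changed by 1 on the log2 scale. The fit found 89.5% of the 200 with the sexes averaged, 57.5% in males and 53.5% in females. These rates were not split by gene level, and none was obtained with a library that stood apart. They therefore do not say what share of the genes described here could be found.

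The 114 genes and all lists were chosen with earlier results of these data known. No identifier matched the reference table, so 17 planned gene lists, cell type markers, promoter motifs and sequences were not used. The rule for named genes, 6 by smallest p and 6 by smallest change among others, was narrowed to 2 of each because they have no symbol. Replicates with the same number were checked for shared deviations in 18 pairs of IH samples. The correlation was -0.34 to 0.42, and 9 pairs were over 0.1. Pairs with different numbers were not examined, so this check cannot tell whether the numbers pair samples. The main fit did not use the numbers, and a replicate block was run as an alternative.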

Additional observations from a re-analysis of the deposited data

Results flagged for a closer look

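Male Nx LPS replicate 2 was far from the other 5 Nx LPS samples in the level of the 114 genes. Its median log2 ratio to vehicle was 0.63, and the gap to the next sample was 0.699 of the range of the 6 samples, past the value that Dixon's criterion sets for 6 samples. Its summed level was 10299.6 CPM, with a gap of 0.670 of the range. Male IH LPS replicate 3 was lower on both measures, but its gaps of 0.544 and 0.462 of the range of the 6 IH LPS samples did not reach that value. There were 8 such sets of 6 samples and measures, and chance flags about 1 in 20. Male Nx LPS replicate 2 took part in choosing the 114 genes, so the criterion is a description here and not a test.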

How the results depend on the processing

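With the sexes averaged, 95 of the 114 genes were called in IH. The count was 106 with the likelihood ratio test, 108 with DESeq2 and 78 to 108 when single replicates were left out. Over all genes, calls in either direction shifted too, from 748 to 1146, 1208 and 407 to 1625 in the same order. The change in count is thus not particular to the 114 genes. In IH males the count (11) was 49 with the likelihood ratio test, 51 with DESeq2, 36 with no filter, 22 with all 24 samples fitted and 6 with the 6 male samples alone, and it was 0 to 78 when single replicates were left out. Calls over all genes in either direction (62) moved likewise, to 240, 238, 158, 110 and 25 in the first 5 of these. In IH females the count (56) was 86 with DESeq2, where calls over all genes went from 305 to 663, and 11 to 88 when single replicates were left out. The interaction and both comparisons of the sexes gave 0 of the 114 genes under all alternatives run, which is no sign of stability with 3 samples a group. With a replicate block the counts were 95 with the sexes averaged, 8 in males and 56 in females. Calls over all genes in either direction were then 781, 48 and 292, against 748, 62 and 305 in the main fit. The rule gave 91 to 126 genes when single Nx replicates were left out, 144 with TMM scaling, and 75 when applied to the IH samples instead, an alternative chosen after seeing the data. The number with an L of at least 1 in both sexes in IH (44) was 51 with TMM scaling, 30 with averaging on the log scale and 24 to 63 when single IH replicates were left out. Median L in IH ranged from 0.70 to 1.18 for males and from 1.03 to 1.32 for females when single replicates were left out. ENSRNOG00000002470 and ENSRNOG00000010208 passed the threshold with the likelihood ratio test, with DESeq2 and without Male IH LPS replicate 3. ENSRNOG00000010208 also passed with no filter and without Female IH LPS replicate 2. Neither gene passed in the other alternatives run. With the sexes averaged, all 114 fitted changes were above 0 without each replicate in turn. In females alone 2 fell to 0 or below without Female IH LPS replicate 3, and the median male minus female difference in L turned from -0.20 to 0.03 without Male IH LPS replicate 3. The cause of these changes was not tested. The SE was largest in the genes lowest in level, and counting error and replicate spread were not separated.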
